A study of Mus musculus with 6 samples.

Results

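The small leucine-rich proteoglycans examined were 7 mouse genes, Dcn (decorin), Bgn (biglycan), Aspn (asporin), Fmod (fibromodulin), Lum (lumican), Prelp (prolargin) and Ogn (osteoglycin). They were selected by name among 34797 gene names on the array, and each was measured by 1 of the 55681 probes. The set was chosen because Dcn had the largest rise of all probes in TIAR KO MEF over WT MEF, so the values of that comparison are given as a description, without a test. The study asked which RNAs change in fibroblasts that lack TIA1 or TIAR, RNA-binding proteins that regulate splicing, translation and mRNA stability. RNA came from immortalized murine embryonic fibroblasts (MEF), with 2 arrays per group from samples stated to be independent: WT cells of strain background W4, TIA1 KO cells of BALB/c and TIAR KO cells of C57BL/6. The 3 groups therefore differed in strain background as well as in genotype, and the lost protein, the strain and the individual cell line cannot be told apart.

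SLRPs are secreted proteins built on a short core of leucine-rich repeats, most of which carry chondroitin, dermatan or keratan sulfate chains. They bind collagen fibrils and set their diameter and spacing, and several of them bind TGF-β or cell surface receptors. Fibroblasts of connective tissue are a main source of decorin, biglycan and lumican. In RNA from a whole culture, fewer cells of a type and less RNA per cell cannot be told apart.

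Of the 7 genes, 5 had higher log2 intensities in TIAR KO MEF than in WT MEF on every array (Dcn, Fmod, Aspn, Ogn and Bgn), while Lum and Prelp were not well above background on any of the 6 arrays. In TIA1 KO MEF the probes of Bgn and Ogn passed the test as higher than in WT, and Dcn was higher there too, given without a test. Bgn was the only one of the 7 that was called lower in TIAR KO MEF than in TIA1 KO MEF. A probe was called where the Benjamini-Hochberg adjusted p of limma was under 0.05 and the fold was above 2. All values below are normalized log2 intensities, and "well above background" is the rating that the scanner software gave to a spot.

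The reading of decorin and biglycan rested on a single 60-base probe each, and these sequences are shown because Dcn had the largest difference and Bgn a different order of the groups. The Dcn probe lay at chr10:96980233-96980292 (mm9). Read from its first base it held 18 codons and then a stop codon, which is in capitals. The Bgn probe lay at chrX:70738554-70738613 (mm9) and had a single reading frame with no stop codon, of 19 codons from its second base.
Dcn: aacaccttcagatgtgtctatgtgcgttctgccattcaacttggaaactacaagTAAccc
Bgn: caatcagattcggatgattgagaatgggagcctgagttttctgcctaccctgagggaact
None of the 7 probes shared a run of 20 bases, on either strand, with a probe of another gene on the array. No spot of the 7 was saturated or marked as an outlier on any array.

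Decorin, which binds collagen and TGF-β and carries a chondroitin or dermatan sulfate chain, was near background in WT MEF, at 6.57 and 6.62. The TIA1 KO arrays gave 9.24 and 9.29 and the TIAR KO arrays 15.67 and 15.82. The groups stood in the order WT, TIA1 KO, TIAR KO with no overlap. The spot was well above background on both TIAR KO arrays, but only on replicate 2 of the WT and of the TIA1 KO arrays. The log2 fold change of TIAR KO over WT was 9.15 ± 0.15 (SE, 2 arrays per group), or 567-fold, rank 1 of 55681 probes. The WT level under this fold is near background, and with the scanner software's processed signal Dcn had rank 2, at 11.17, behind Lpl at 11.4. Before any normalization the Dcn spot had a mean intensity of 136 and 138 on the WT arrays and of 48900 and 45300 on the TIAR KO arrays, with a local background of 41 to 50 on all 4. In the log2 table that the authors deposited, the same spot was 7.07 and 7.27 in WT, 8.48 and 9.35 in TIA1 KO and 15.7 and 15.85 in TIAR KO.

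The TIA1 KO difference of Dcn from WT was 2.67 ± 0.15 on the log2 scale, with no test since the WT arrays also served to choose Dcn. It was far smaller than the TIAR KO difference and rested on weaker spots. The local background at the Dcn spot was 334 and 127 on the TIA1 KO arrays, and the mean intensity there was 1020 and 692. Over all spots the median local background was 89.5 and 58 on the TIA1 KO arrays and 42 to 52 on the other 4, and the 95th percentile was 602 on TIA1 KO replicate 1. The part of this background in the TIA1 KO values was not tested. With the authors' log2 table the Dcn difference was 1.74, and with arrays scaled to a common median it was 1.39. A local background at least as high as at Dcn was found at 6716 spots of TIA1 KO replicate 1. These spots were higher there than on replicate 2 by a median of 0.84. Dcn itself differed by -0.05 in the main processing, but was 8.48 and 9.35 in the authors' table. With quantiles and no loess step the Dcn difference from WT was 1.60 ± 0.35 and not past the thresholds.

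Biglycan, the closest relative of decorin and also a carrier of chondroitin or dermatan sulfate, was well above background on all 6 arrays. It was 10.72 and 11.25 in WT, 14.45 and 14.38 in TIA1 KO and 12.81 and 13.06 in TIAR KO. Every TIA1 KO value was above every TIAR KO value, and both were above WT. The TIA1 KO difference from WT was 3.43 ± 0.24 (adjusted p = 0.0122) and the TIAR KO difference from WT was 1.95 ± 0.23. TIAR KO lay below TIA1 KO by a log2 fold change of -1.48 ± 0.17 (adjusted p = 0.0354). Scaling the arrays to a common median in place of quantiles reduced this last value to -0.36, with no call, and the TIA1 KO difference from WT to 1.87. With the processed signal the last value was -1.50 with no call, or 0.34 relative to the median of all probes.

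Asporin, a decorin relative that lacks the sulfated chain, was at 6.79 and 6.76 in WT and not well above background there. It was 11.3 and 11.72 in TIAR KO, well above background on both arrays, which put it at least 23.2-fold higher than in WT. The TIA1 KO arrays split, with 10.28 on replicate 1 and 7.73 on replicate 2, a difference of 2.55. Their mean was at least 4.09-fold above WT, and the log2 difference of 2.23 ± 0.89 did not pass the test (adjusted p = 0.199). The local background at this spot was 581 on TIA1 KO replicate 1 and 102 on replicate 2. A background at least that high was found at 3230 spots of replicate 1, or 5.45% of spots, which were higher on replicate 1 than on replicate 2 by a median of 0.96, against a median of -0.04 over all spots. Without TIA1 KO replicate 1 the Aspn difference was 0.95 and not called, and without replicate 2 it was 3.50 and called.

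Fibromodulin, a keratan sulfate carrier that regulates collagen fibril growth, was 6.79 and 7.14 in WT, 7.62 and 8.80 in TIA1 KO and 12.87 and 12.96 in TIAR KO. The spot was well above background on both TIAR KO arrays and only on replicate 2 of each other group. The TIAR KO difference from WT was 5.95 ± 0.18, or 61.7-fold. The TIA1 KO difference of 1.24 ± 0.45 did not pass (adjusted p = 0.174), although both TIA1 KO values were above both WT values. Without TIA1 KO replicate 1 it was 1.83 and called. The replicates differed by -1.18 (replicate 1 minus 2) at a like local background of 141 and 142. The TIAR KO difference from TIA1 KO was 4.71 ± 0.43 (adjusted p = 0.0218).

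Lumican and prolargin, the other members related to fibromodulin, had no difference that could be seen at this signal. Lum lay between 6.46 and 6.68 and Prelp between 6.43 and 7.04 over the 6 arrays. The log2 fold changes of Lum were -0.08 ± 0.16 in TIA1 KO and 0.03 ± 0.14 in TIAR KO over WT. Those of Prelp were -0.39 ± 0.18 and 0.04 ± 0.16. Lumican is a product of many fibroblast populations, yet its probe gave no readable signal in any group.

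Osteoglycin, also called mimecan, a member of the family known from bone and connective tissue, was well above background on all 6 arrays. It was 10.86 and 11.55 in WT, 13.59 and 13.73 in TIA1 KO and 15.33 and 15.64 in TIAR KO, again in the order WT, TIA1 KO, TIAR KO with no overlap. The TIA1 KO difference from WT was 2.46 ± 0.28 (adjusted p = 0.0329), the TIAR KO difference from WT was 4.28 ± 0.27, and that of TIAR KO from TIA1 KO was 1.82 ± 0.19 (adjusted p = 0.0283). Under common-median scaling the TIA1 KO difference from WT was 0.84 and not called. With the processed signal it was 2.17 and not called, or 0.19 relative to the median of all probes. It also lost its call with the authors' table, limma's treat and the replicate block. Without WT replicate 1 it was 2.12, and without WT replicate 2 it was 2.80. The local background at this spot was 311 and 106 on the TIA1 KO arrays, against mean intensities of 11500 and 14200.

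**Figure D1:**
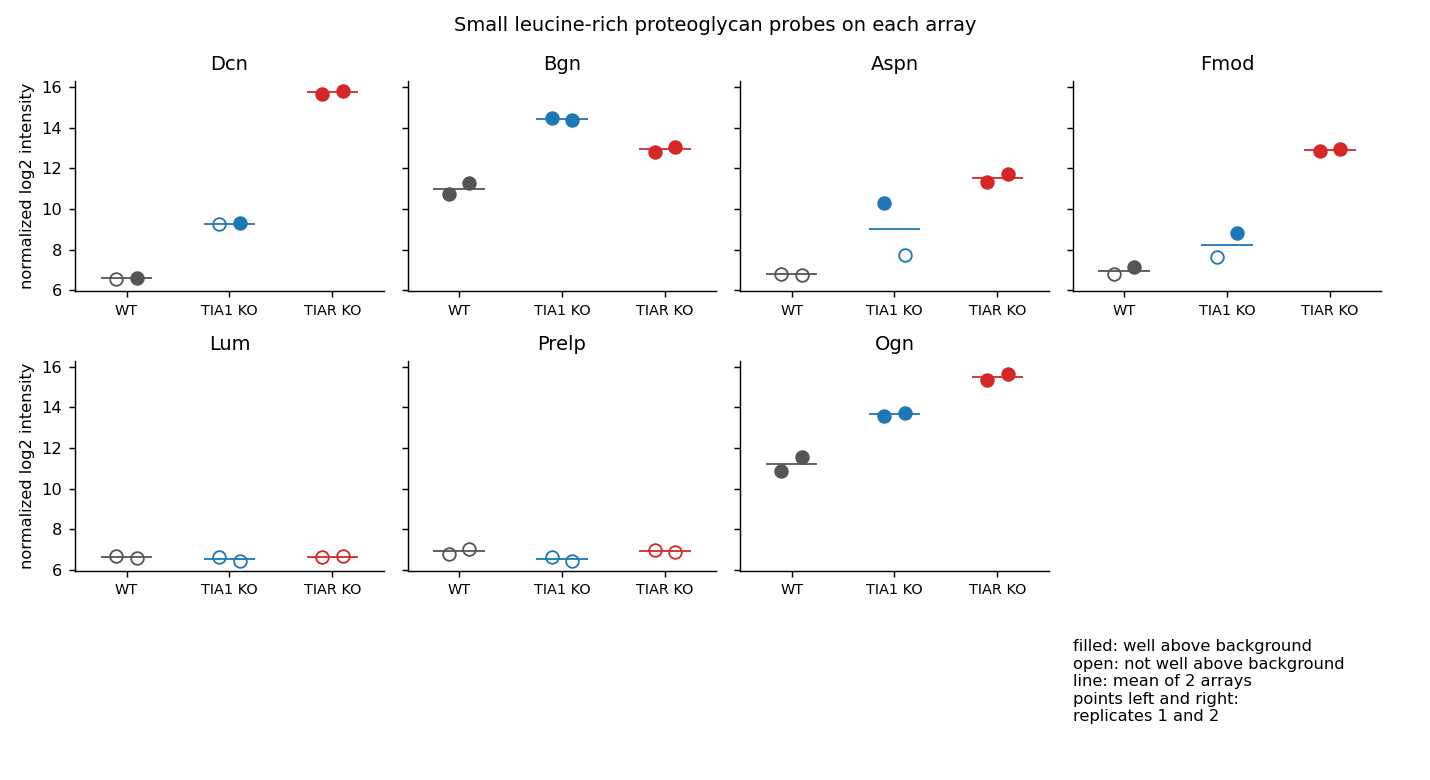
Normalized log2 intensity (vertical axis) of the 7 proteoglycan probes on the 6 arrays, by group (horizontal axis); points are arrays, lines are means of 2 arrays, and open points were not well above background. Dcn rose from 6.57 and 6.62 in WT to 15.67 and 15.82 in TIAR KO, Bgn was highest in TIA1 KO, and Lum and Prelp have open points only.

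**Figure D2:**
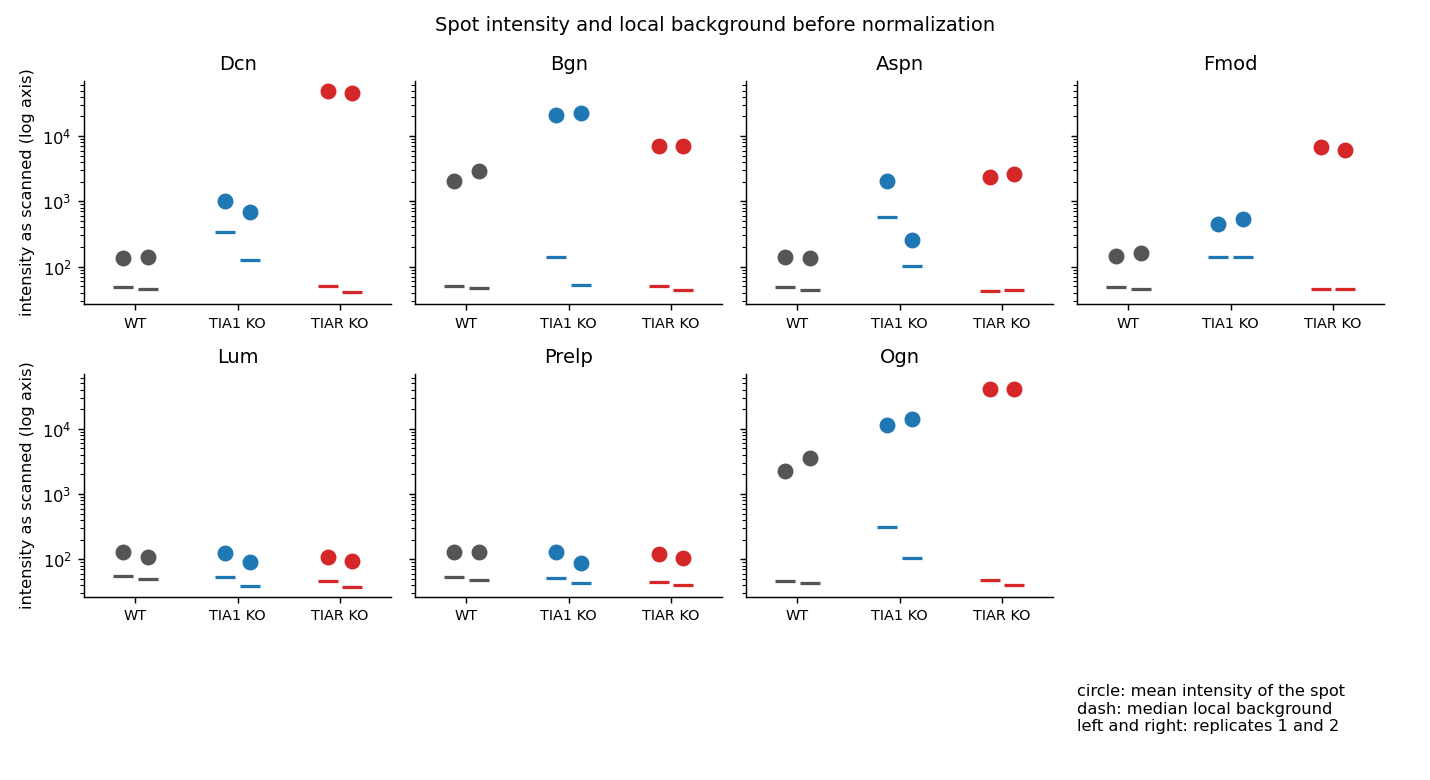
Scanned mean intensity (circles) and median local background (dashes) of the same spots on a log axis, by group, with replicate 1 on the left. On the TIA1 KO arrays the local background at the Dcn, Aspn and Ogn spots reached 334, 581 and 311, while on the WT and TIAR KO arrays it was 38 to 56 at all 7 spots.

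Counted over the set, 5 of 7 members were called higher in TIAR KO MEF than in WT MEF, beside 3.39% of all probes. This comparison chose the set, and nothing is read from that count. In TIA1 KO over WT, which shares the WT arrays, 2 of the 6 members other than Dcn passed as higher (Bgn and Ogn), beside 2.18% of all probes, and 0 as lower, beside 1.36%. The median log2 fold change of these 6 was 1.73, against -0.09 over all probes. Dcn was past the same thresholds and is left out of the count because it was chosen on the WT arrays. In TIAR KO over TIA1 KO, Fmod and Ogn were called higher (1.72% of all probes) and Bgn lower (1.63%). The Dcn value of 6.48 ± 0.16 carries no test, since the TIAR KO arrays are those on which it was chosen.

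The counts with TIA1 KO depended on the processing. With the authors' log2 table only Bgn was called in TIA1 KO over WT, at 3.34. In limma without WT replicate 1 or without WT replicate 2, 0 of all probes were called, members included, while 7202 and 7415 had an unadjusted p under 0.05. In TIAR KO over TIA1 KO, 0 probes were called without TIAR KO replicate 1 or without replicate 2, with 6318 and 6402 at an unadjusted p under 0.05. Aspn was called higher there without TIA1 KO replicate 1, at 3.78, and without replicate 2, at 1.23. Without TIAR KO replicate 2 the Bgn difference of TIAR KO from WT was 1.83 and not called. Scaling to a common median gave 3 of the 6 members other than Dcn higher and 0 lower in TIAR KO over TIA1 KO. It moved the share of higher calls among all called probes there from 51.3% to 87.1%. In TIA1 KO over WT that scaling moved the share from 61.6% to 11.6% and in TIAR KO over WT from 58.8% to 33.6%. Dcn, Bgn, Fmod, Ogn and Aspn kept the sign of each of their 3 differences under every alternative that was run, except that Bgn turned in TIAR KO over TIA1 KO relative to the median of all probes with the processed signal.

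**Figure D3:**
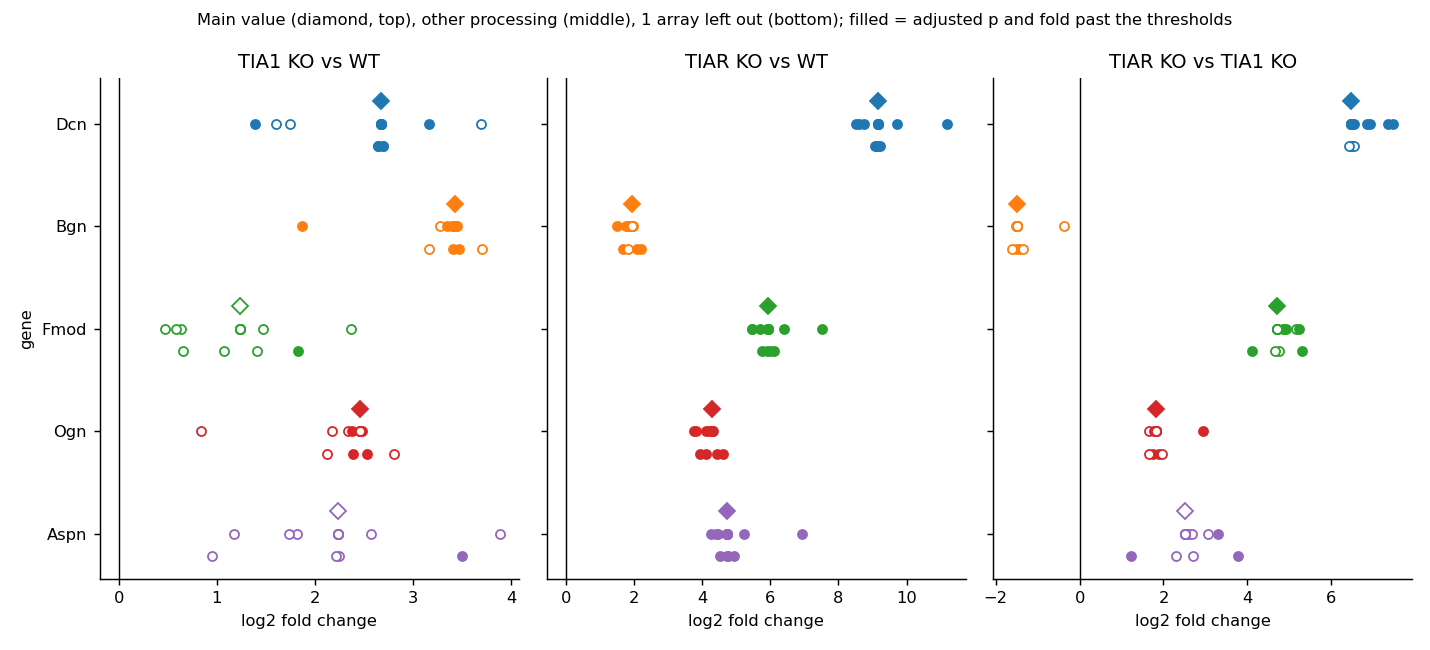
Log2 fold change (horizontal axis) of 5 members in the 3 comparisons with the main processing (diamonds), other processing (middle row of circles) and 1 array left out (bottom row); filled symbols passed both thresholds. The TIAR KO over WT values of Dcn stayed between 8.52 and 11.17, whereas those of TIA1 KO over WT spread from 1.39 to 3.69 and were partly open.

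The members lie in clusters of related genes, which allowed neighbours on the same chromosome to be set beside each other. Around Dcn, the probes of Lum, Kera (keratocan) and Epyc (epiphycan) lay at 55, 96 and 164 kb, and none of these 3 was well above background on any array. Dcn was thus the only proteoglycan gene of its cluster with a readable signal. Of 8 probes of other genes within 500 kb of Dcn, 0 were called in TIA1 KO over WT and 0 in TIAR KO over WT. Over all probes 2.18% were called higher and 1.36% lower in TIA1 KO over WT, and 3.39% and 2.37% in TIAR KO over WT. Beside these shares, 0 of 8 probes is not read as a result.

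On chromosome 13, Ecm2, Aspn, Omd (osteomodulin) and Ogn follow each other within 91.5 kb. Aspn, Omd and Ogn were all higher in TIAR KO than in WT, with Omd at 7.22 and 7.12 in WT, 9.17 and 9.94 in TIA1 KO and 9.08 and 9.13 in TIAR KO. The TIA1 KO difference of Omd was 2.39 ± 0.30 (adjusted p = 0.0402). Its difference between the knockouts, -0.45 ± 0.30, did not pass (adjusted p = 0.415), whereas Ogn, 31.7 kb away, was higher in TIAR KO. Of 36 probes of other genes within 500 kb of Ogn, 1 was called in TIA1 KO over WT (a probe without a gene symbol), 1 in TIAR KO over WT (Fgd3, at 1.26) and 2 between the knockouts (that first probe and 1110007C09Rik). Between the knockouts 1.72% of all probes were called higher in TIAR KO and 1.63% lower. Beside these shares and those over WT given for Dcn, nothing is read from the counts near Ogn. Ecm2, 34.4 kb from Aspn, was not well above background on any array.

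On chromosome 1, Fmod lies 137 kb from Prelp and 150 kb from Optc (opticin), a member found in the vitreous of the eye. Optc was 6.74 on both WT arrays, 8.06 and 8.13 in TIA1 KO and 8.65 and 8.87 in TIAR KO, well above background only in TIAR KO, which put it at least 3.48-fold above WT. Prelp, 13.1 kb from Optc, stayed near background. Of 40 probes of other genes within 500 kb of Fmod, 0 were called in any of the 3 comparisons. Like the counts near Dcn and Ogn, this one is not read as a result beside the shares of all probes.

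**Figure D4:**
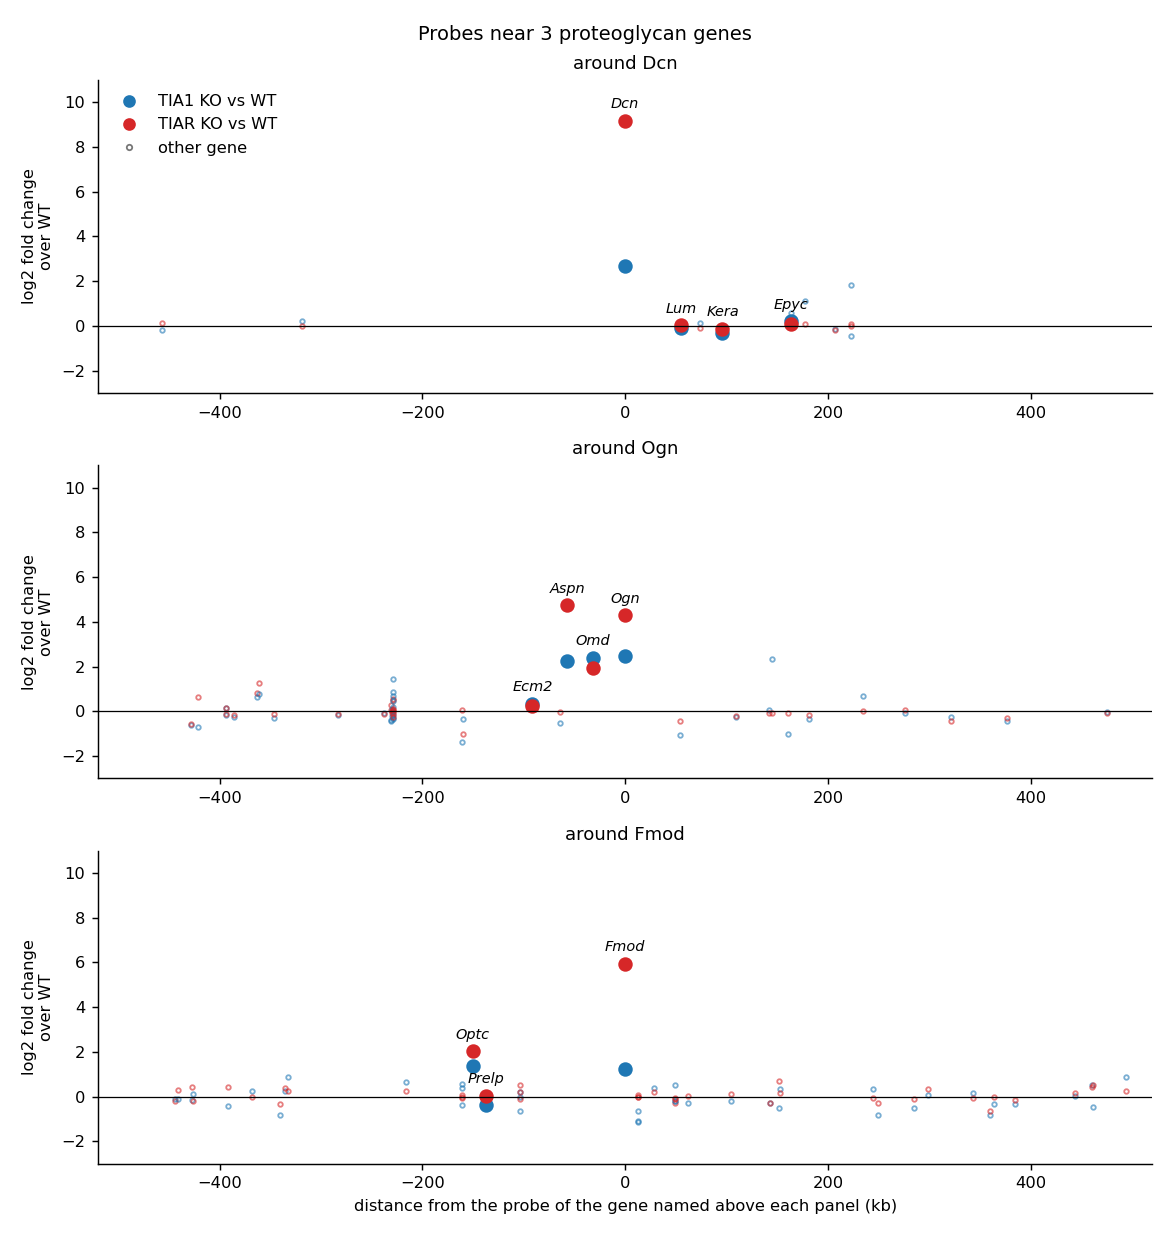
Log2 fold change over WT (vertical axis) of probes within 500 kb of Dcn, Ogn and Fmod, by distance in kb (horizontal axis); blue is TIA1 KO, red is TIAR KO, large filled points are proteoglycan genes and small open points are other genes. Dcn at 9.15 stands beside Lum, Kera and Epyc near 0, while Aspn, Omd and Ogn lie above 0. Lum, Kera, Epyc and Ecm2 were not well above background on any array, so their values do not show a lack of change.

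The sequence before the start of Ogn and Aspn, the neighbours that rose together in TIAR KO MEF, is shown for comparison. RefSeq promoters (GRCm38.p6) were matched for 5 of the 7 genes, Aspn, Bgn, Fmod, Ogn and Prelp. Motifs were searched on both strands of the 250 bases before the start. They were TATAAA, the letters of the TATA box, and the E-box, spelled CANNTG. The letters GGAATG are bound by TEAD factors. The letters GGGCGG are bound by Sp1. The letters TGANTCA are bound by AP-1. Below are the last 120 bases before the start on the gene's strand, for Aspn at chr13:49544323-49544442 and for Ogn at chr13:49607895-49608014, both on the plus strand, with motif matches in capitals.
Aspn: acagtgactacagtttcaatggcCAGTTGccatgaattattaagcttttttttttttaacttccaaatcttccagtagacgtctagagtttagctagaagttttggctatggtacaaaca
Ogn: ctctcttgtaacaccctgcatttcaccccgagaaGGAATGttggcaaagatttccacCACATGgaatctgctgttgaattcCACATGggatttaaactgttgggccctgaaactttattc
Within 250 bases Ogn held 3 matches to CANNTG, 2 to TATAAA and 1 to GGAATG, and Aspn held 1 to CANNTG and 2 to TATAAA. Fmod and Bgn held 1 match to CANNTG each, Bgn also held 3 matches to GGGCGG, a pair of them overlapping, and Prelp held 0 to all of these motifs. Of 32851 promoters, 66.2% held CANNTG, 12.4% TATAAA, 12.6% GGAATG, 32.7% GGGCGG and 6.75% TGANTCA, and a match is a description of these letters.

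The genes with the pattern most like that of Dcn were found by the root mean square difference of centred log2 values over the 6 arrays, among 18407 probes of named genes. They were Aldh1a1 at 0.65, Fabp7 at 0.79, Thy1 at 0.90, Ppfibp2 at 0.92 and Ptn at 0.96. Aldh1a1, a retinaldehyde dehydrogenase, was 6.86 and 6.53 in WT, 7.57 and 8.33 in TIA1 KO and 15.04 and 14.68 in TIAR KO. Nearest to Bgn were B4galnt1 at 0.11 and Fstl1 at 0.18, nearest to Fmod were Hunk at 0.30 and Lpl at 0.33, and nearest to Ogn were C1qtnf1 and Cdc42ep2, both at 0.26. The Lpl probe nearest to Fmod is a dimmer one than that given for Lpl below. Adamts9, nearest to Aspn at 0.28, was 9.84 and 7.26 on the TIA1 KO replicates. The ranking used these arrays, so a split like that of Aspn follows from the choice and is not read as a result. For Lum and Prelp no likeness is given, since they were not measured above background.

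In the rest of the family, 5 of 11 genes were called higher in TIA1 KO than in WT and none lower. For Optc, 1 of the 5, neither group was well above background on any array. Podnl1 (podocan-like 1) was 9.89 and 10.13 in WT, 14.03 and 14.02 in TIA1 KO and 11.57 and 11.53 in TIAR KO, the same order of groups as Bgn. Its TIA1 KO difference from WT was 4.02 ± 0.17 (adjusted p = 0.00504) and that of TIAR KO from TIA1 KO was -2.48 ± 0.15 (adjusted p = 0.00973). Chadl (chondroadherin-like) also lay lower in TIAR KO than in TIA1 KO, by -1.58 ± 0.15 (adjusted p = 0.0241). Chad (chondroadherin) had 2.28 ± 0.27 in TIA1 KO over WT (adjusted p = 0.0359) and 0.22 ± 0.23 in TIAR KO over WT. In TIAR KO over WT 4 of the 11 were called higher (Omd, Optc, Chadl and Podnl1). Over all probes 2.18% were called higher and 1.36% lower in TIA1 KO over WT, and 3.39% and 2.37% in TIAR KO over WT. The counts of this list and of those below stand beside these shares.

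**Figure D5:**
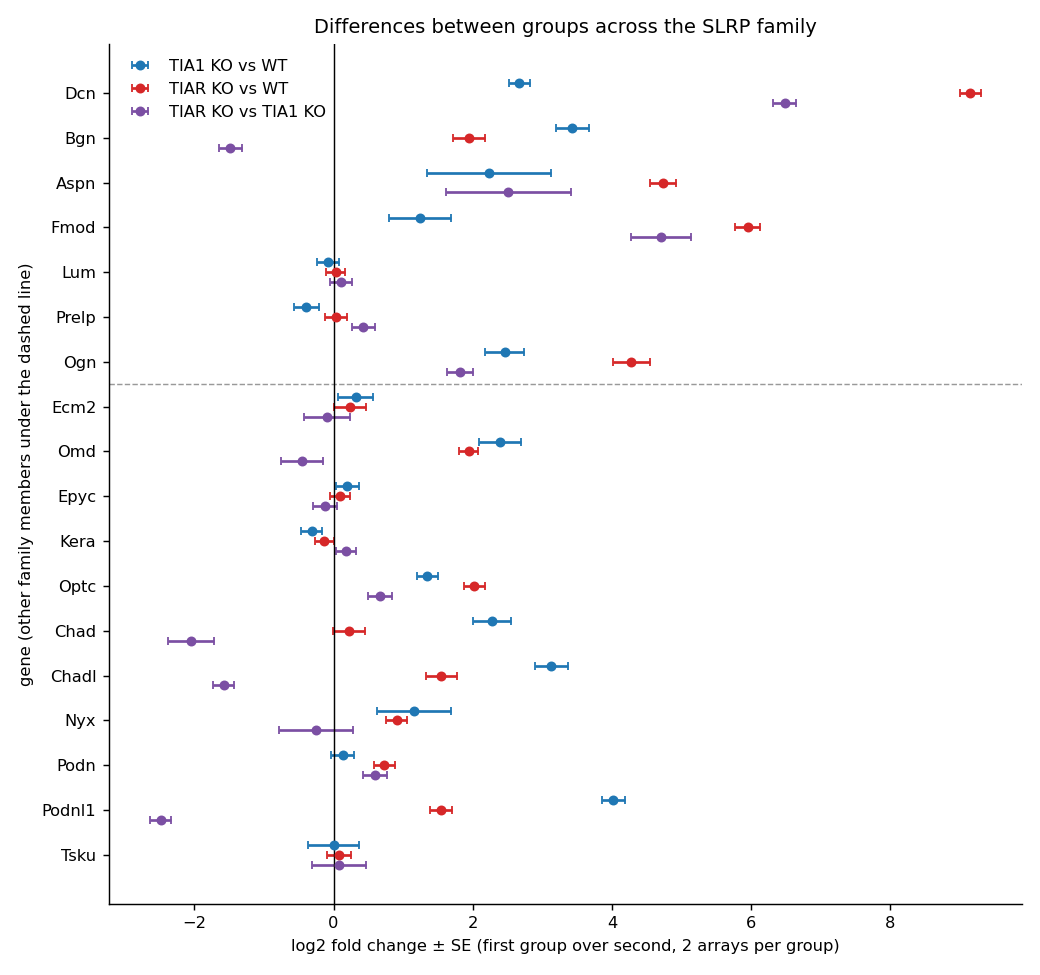
Log2 fold change ± SE (horizontal axis, 2 arrays per group) of the 7 genes and, under the dashed line, of 11 other family members, for the 3 comparisons (colours). Dcn, Fmod, Ogn and Aspn are higher in TIAR KO than in TIA1 KO, with Aspn not past the test. Bgn, Podnl1 and Chadl are lower, at -1.48, -2.48 and -1.58, and Chad is lower at -2.05 but not past the test.

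Among 22 enzymes that build chondroitin and dermatan sulfate, the chains borne by decorin and biglycan, 3 were called higher in TIA1 KO than in WT and none lower. Under common-median scaling the counts were 2 higher and 5 lower, and the list's median went from 0.42 to -0.77. Chst7, a 6-O-sulfotransferase, had 4.0 ± 0.17 (adjusted p = 0.0052), Csgalnact1, which starts the chain, 1.98 ± 0.26 (adjusted p = 0.0432), and Chst11, a 4-O-sulfotransferase, 1.59 ± 0.18 (adjusted p = 0.0317). In TIAR KO over WT 2 were called higher, Chst15 at 2.38 ± 0.19 and Chpf at 1.16 ± 0.17. Dse, Dsel and Chst14, which make dermatan sulfate, were not called. Of 10 enzymes of keratan sulfate and tyrosine sulfation, which modify fibromodulin, Chst1 fell in TIA1 KO, by a log2 fold change of -1.50 ± 0.15 (adjusted p = 0.0249). In TIAR KO over WT Chst1 had -1.73 ± 0.63 with no call, its TIAR KO arrays split at 14.23 and 12.23. B4galt4 was called in TIAR KO over WT, at 1.17 ± 0.19. Common-median scaling gave 5 of the 10 lower in TIA1 KO.

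The ligands of the core proteins had more calls. Of 22 collagens, growth factors and other ligands, 16 were called higher in TIA1 KO and 13 in TIAR KO than in WT, and none lower in either. The medians of the list were 2.47 and 2.05, against -0.09 and -0.02 over all probes. Common-median scaling gave 10 and 12 higher and none lower. Col6a3, a chain of collagen VI, to which biglycan and decorin bind, was 6.74 and 6.50 in WT, 15 and 15.18 in TIA1 KO and 9.04 and 9.71 in TIAR KO, at least 295-fold and 5.63-fold above WT. Col3a1 had 6.32 ± 0.21 (adjusted p = 0.00369) in TIA1 KO and 6.60 ± 0.50 in TIAR KO over WT. Tgfb2 had 4.17 ± 0.17 (adjusted p = 0.00495) and 4.36 ± 0.15. Col6a3 and Col2a1 were the ligands with the largest differences between the knockouts, at -5.71 ± 0.28 (adjusted p = 0.00809) and -3.98 ± 0.16 (adjusted p = 0.00622) in TIAR KO over TIA1 KO.

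Of 16 genes of collagen fibril processing, 6 were called higher and 1 lower in TIA1 KO than in WT, and 5 higher and 1 lower in TIAR KO (2.37% of all probes were called lower there). Adamts2 and Adamts14, which trim procollagen, were higher in both knockouts. Adamts2 was not well above background in WT, and it was at least 14.5-fold higher in TIA1 KO (adjusted p = 0.00737) and at least 168-fold higher in TIAR KO. Adamts14 had 5.42 ± 0.15 (adjusted p = 0.00362) in TIA1 KO over WT and 5.07 ± 0.14 in TIAR KO over WT. Lox, which cross-links collagen, had 4.34 ± 0.17 (adjusted p = 0.0049) and 2.21 ± 0.17. Pcolce2, which helps to process procollagen, fell in TIA1 KO, at -2.05 ± 0.26 (adjusted p = 0.0414), and Plod2, a lysyl hydroxylase, was called lower in TIAR KO than in WT, at -1.25 ± 0.15. Bmp1, which removes the propeptide of biglycan, was not called. Of the 6 higher in TIA1 KO, Loxl4 at 1.03 turned to -0.56 under common-median scaling, which gave 3 of the list higher and 3 lower and a median of -0.43 in place of 0.85.

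Of 11 receptors that bind these proteoglycans, 2 were called higher in TIA1 KO than in WT, beside 2.18% of all probes, and 1 lower, beside 1.36%. In TIAR KO over WT 2 were called higher, beside 3.39%. Tgfbr2, 1 of the 2 higher in TIA1 KO, had 1.76 ± 0.15 there (adjusted p = 0.0177), with 0.21 as the lowest value under the alternatives. In TIAR KO over TIA1 KO it had -1.99 ± 0.15 (adjusted p = 0.0154). Tlr2, a receptor of biglycan and decorin, was 11.44 and 11.51 in WT, 10.07 and 9.98 in TIA1 KO and 12.6 and 12.58 in TIAR KO. It fell in TIA1 KO, at -1.45 ± 0.15 (adjusted p = 0.0276), and was higher in TIAR KO than in TIA1 KO, at 2.57 ± 0.15 (adjusted p = 0.00964). Egfr, bound by decorin, was higher in TIAR KO than in TIA1 KO, at 1.35 ± 0.17 (adjusted p = 0.0414), and Met was not called. Lrp1 had 1.34 ± 0.17 in TIA1 KO over WT (adjusted p = 0.0414) but -0.25 when arrays were scaled to a common median. Under that setting 0 receptors were higher and 6 lower in TIA1 KO, the list's median was -1.24 in place of 0.16, and the median of all probes was -0.68 in place of -0.09.

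Markers of the labelled cell type and of others moved as well. Of 12 fibroblast markers, both arrays were well above background for 9 in WT, 10 in TIA1 KO and 11 in the TIAR KO group, and 6 were called higher in TIA1 KO and 8 in TIAR KO than in WT, none lower. In TIA1 KO, common-median scaling gave 4 higher and 2 lower, and the replicate block and treat gave 3 higher each. The log2 of their summed intensity was 19.17 and 19.21 in WT and 20.4 to 20.46 in the knockouts. Col1a1, Col1a2, Col3a1 and Fn1, called higher in both knockouts, stand in the ligand list as well and were already counted there. Col2a1 and Kdr likewise stand in the ligand and the receptor list and again among the markers below. Thy1, a fibroblast surface marker, was 6.63 and 6.98 in WT, 7.11 and 7.48 in TIA1 KO and 14.84 and 14.74 in TIAR KO. Fap was not well above background on any array, and Vim and S100a4 were not called in either knockout over WT. Of 6 smooth muscle markers, 2 (Acta2 and Tagln) were called higher in TIA1 KO and 4 in TIAR KO, and their summed level was 15.1 and 15.3 in WT, 18.14 and 18.29 in TIA1 KO and 18.93 and 18.78 in TIAR KO, while Myh11 was not well above background on any array. Of 7 adipocyte markers, Lpl was at least 337-fold higher in TIAR KO than in WT and Pparg had 4.13 ± 0.16 in TIA1 KO over WT (adjusted p = 0.00485), while Adipoq, Cfd and Lep were not well above background on any array. The summed levels of the adipocyte list were 11 and 11.25 in WT, 12.79 and 12.97 in TIA1 KO and 15.5 and 15.47 in TIAR KO. Of 8 chondrocyte or osteoblast markers, Col2a1 was called in TIA1 KO. Sox9 and Runx2 were well above background on both WT and both TIAR KO arrays, and Sp7 and Ibsp were not so anywhere. Common-median scaling gave 1 smooth muscle, 1 chondrocyte or osteoblast, 3 macrophage, 1 endothelial and 1 tendon marker lower in TIA1 KO than in WT. Of 8 macrophage markers, Itgam was called higher in TIA1 KO, at 1.82 ± 0.24 (adjusted p = 0.0415), and Cd14 and Aif1 were called lower in TIAR KO. Cd68, Cd14 and Itgam were well above background on every array, and Csf1r on every array but 1 of TIA1 KO. Ptprc, Emr1 and Lyz2 were not well above background on any array. Of 6 endothelial markers 0 were called in either knockout over WT. Kdr was well above background on every array, and Pecam1 and Vwf on both WT and both TIAR KO arrays. Cdh5 and Tie1 were not well above background anywhere. Of 6 epithelial markers, 2 were called higher in TIA1 KO and 3 in TIAR KO, with Krt8 at 1.23 in both, while Epcam was above background on a single TIA1 KO array. Of the 2 epithelial calls in TIA1 KO, that of Krt19 at 1.05 turned to -0.54 when arrays were scaled to a common median. Of 4 tendon markers, Scx was called higher in TIAR KO, at 1.16 ± 0.15, and Mkx lower, at -1.67 ± 0.15, while Tnmd and Thbs4 were not well above background on any array. The summed levels of the macrophage list were 13.4 and 13.49 in WT, 14.2 and 14.38 in TIA1 KO and 13.29 and 13.3 in TIAR KO. The part of any of these cell states in the values of Dcn and the other members was not tested.

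The checks of the arrays were of mixed quality. The targeted RNAs separated only in part: the brightest Tia1 probe was 10.72 and 8.54 in WT and 7.87 and 8.44 in TIA1 KO and 9.56 and 9.58 in TIAR KO, and was not called in TIA1 KO over WT. Another Tia1 probe was 9.56 and 9.9 in WT and 7.57 and 8.65 in TIA1 KO, with no overlap and no call. The remaining Tia1 probe went the other way, at 7.44 and 7.25 in WT and 7.88 and 8.54 in TIA1 KO. It was well above background on only 1 TIA1 KO array and was not called. Of 2 probes of Tial1, the gene of TIAR, 1 was called lower in TIAR KO than in WT, at -1.58 ± 0.26, and the brighter one, left out on WT replicate 1 as an outlier spot, was 13.22 on WT replicate 2 and 9.57 and 11.6 in TIAR KO, with no call. Where these probes lie relative to the deleted parts is not given in the sources used here. The scanner rated 16021 and 19996 probes well above background on the TIA1 KO arrays and 23569 to 26295 on the other 4. The SD of log2 values between the replicates, pooled over probes, was 0.442 in TIA1 KO, 0.273 in WT and 0.285 in TIAR KO. All 6 arrays were on a single slide, with both TIA1 KO arrays in another row than the rest, so the position on the slide cannot be told apart from the TIA1 KO group.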

How the data were processed

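The authors deposited scanner output of 6 one-colour Agilent SurePrint G3 Mouse 8x60 arrays, giving each spot's mean intensity and the median of its local background, and a table of log2 values per spot that they state to be normalized. Per the methods of the study, background was corrected by normexp with an offset of 50, followed by log2, loess and quantile normalization and limma. The same steps were run here from the intensities (R 4.3.3, limma 3.58.1, cyclic loess in 1 pass, then quantiles). The deposited log2 table served as an alternative, since the reference of its loess step and its global scaling are not given in detail. Its columns correlated with the values used here at 0.997 to 0.999 and had medians of 7.22 to 7.23.

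Outlier spots were left out, and spots of a probe were averaged, giving 55681 probes with ControlType 0. For genes with more than 1 probe the brightest was taken. Each comparison was fitted with lmFit and eBayes on its 4 arrays. Calls needed a fold above 2 and an adjusted p under 0.05 (Benjamini-Hochberg, over all probes). A fold is written as "at least" where a group was not well above background on any array. It then compares the mean of the brighter group with the lowest signal rated well above background on each array of the dimmer group, or with the probe's own signal where that was higher. The 2 arrays per group limit the precision. The samples are called independent by the submitters. In eBayes the variance of each probe is drawn towards a value estimated over all probes. The SE and p-values printed here therefore do not measure the spread of that probe's samples alone. Probe positions are those of the scanner files (mm9). The code was tested on simulated data.

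The members and all gene lists were chosen with earlier results of these data known. From each list at most 4 called genes with the largest changes were to be named, and other list genes, the motifs and the nearby genes described were picked after their values were seen. Likeness was ranked among gene-named probes that both arrays of some group rated well above background, with the 5 nearest given for Dcn and the 2 nearest for each other member. Settings that were varied were the signal, the scaling, the offset, the filter, the model and the arrays included.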

Additional observations from a re-analysis of the deposited data

How the results depend on the processing

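Of 309 member values under the alternatives, 256 kept their direction and their side of the threshold, 38 lost their call, 5 gained one and 10 turned in sign, all 10 of Lum or Prelp. With the scanner software's processed signal, Lum and Prelp turned to 3.09 and 2.41 in TIA1 KO over WT, to -0.08 and -0.07 in TIAR KO over WT and to -3.17 and -2.49 in TIAR KO over TIA1 KO, while the median of all probes stood at 1.98, -0.04 and -1.85. Leaving out 1 array moved Lum from -0.16 to 0.01 in TIA1 KO over WT (0.01 without TIA1 KO replicate 2) and from -0.03 (without WT replicate 2) to 0.09 in TIAR KO over WT, and Prelp from -0.09 (without WT replicate 1) to 0.16 in TIAR KO over WT, with -0.01 without TIAR KO replicate 1. Counting Dcn, the 3 members past the thresholds in TIA1 KO over WT became 0 with the processed signal and 1 with the authors' log2 table, and 0 to 4 with 1 array left out. The 4 in TIAR KO over TIA1 KO, Dcn included, became 1 with the processed signal, 2 with the authors' table, 1 with limma's treat and 0 to 5 with 1 array left out. The replicate block left 0 of these 4, and 0 of all probes in limma (10684 at an unadjusted p under 0.05), and it kept 2 members in TIA1 KO over WT. Same-numbered arrays correlated at 0.078, 0.0302 and -0.0729 in their deviations over all probes. Most probes were not well above background, so these values cannot show whether same-numbered samples were prepared together. The 5 called in TIAR KO over WT were 4 or 5 under every alternative run. The cause of these changes was not tested.

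Over all probes, the 1969 calls in TIA1 KO over WT became 0 with the processed signal (27765 at an unadjusted p under 0.05), 1309 with the authors' table, 16041 with a common array median, 3986 with all groups in 1 fit, 671 with the replicate block, 440 with treat and 0 to 10735 with 1 array left out. The 3206 in TIAR KO over WT became 1016 with treat. The 1866 in TIAR KO over TIA1 KO became 8416, 3183 and 409 with a common median, 1 fit and treat, 2869 with only probes well above background, and 0 to 10086 with 1 array left out. Calls in TIAR KO over TIA1 KO with the processed signal were 8.28% higher, against 51.3%. Another probe per member could not be tried, since each has 1. Signal over background limits Lum and Prelp in all groups, and Dcn, Aspn and Fmod in WT and TIA1 KO.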

Other observations

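Within 500 kb of Bgn, 54 probes of other genes were measured. Of these, 5 were called in TIAR KO over WT, beside 3.39% of all probes higher and 2.37% lower. In TIA1 KO over WT 0 were called, beside 2.18% higher and 1.36% lower. Nothing is read from these counts. The 5 probes called in TIAR KO over WT belonged to Dusp9, Plxnb3, Srpk3 and Renbp, the last with 2 probes. Dusp9, a phosphatase of MAP kinases, was 11.45 and 11.82 in WT, 10.63 and 10.28 in TIA1 KO and not well above background in TIAR KO, at least 25.8-fold lower there than in WT. Plxnb3, a plexin, was at least 17.7-fold higher in TIAR KO than in WT. The Renbp probe with the larger difference was 7.44 and 7.34 in WT, 8.23 and 8.16 in TIA1 KO and 11.49 and 12.84 in TIAR KO. These genes were chosen after their values were seen.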
